A study of Mus musculus with 8 samples.

Results

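The insulin-like growth factor (IGF) ligands, their receptor and their binding proteins were examined in the ventral prostate of mice that express human SKP2. Genes were chosen by name: Igf1, Igf2, Igf1r and Igfbp2 to Igfbp7, which are 9 of the 36333 genes listed. Earlier results of these data were known at the time, so shares of the 9 set beside all genes are descriptive. All 9 passed the filter on low values (TPM no lower than 1 in 4 or more of the 8 samples), which 13080 genes passed in all. IGF1 and IGF2 are secreted peptides that bind and activate the receptor tyrosine kinase IGF1R, which signals to PI3K, AKT and mTOR and promotes growth and survival. The binding proteins hold the ligands in extracellular fluid, and they can lower or prolong ligand action depending on the protein, its cleavage and the matrix around it. In the prostate, IGF1 is known mainly as a product of the stroma that acts on the epithelium, where IGF1R is found.

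The hSKP2-KI mice were FVB/N males with a P2A-linked human SKP2 coding sequence inserted in exon 1 of the mouse probasin gene. SKP2 is the substrate-binding subunit of a ubiquitin ligase that targets the cell cycle inhibitor p27. The probasin promoter is active in prostate epithelium and responds to androgen, and the gene is on the X chromosome, so a male carries either the knock-in allele or the normal allele. Carrier females were bred with FVB/N wild-type males, WT mice were FVB/N wild type, and the founder line that was sequenced is not named. Ventral lobes of 4 hSKP2-KI and 4 WT mice were taken at 12 months of age and gave one poly-A RNA library per mouse. Values are TPM, a measure scaled by transcript length that sums to the same total in every sample. Read numbers are not part of it, so the depth of each library is unknown beyond the nominal number of reads that the study states.

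The row of mouse Skp2 was at 37.3 to 60.6 TPM in hSKP2-KI samples and at 1.05 to 2.27 TPM in WT samples. The inserted sequence is human, and how much of it was counted on the mouse row was not tested. Pbsn was at 93 to 174 TPM in hSKP2-KI samples and at 3980 to 9232 TPM in WT samples. Seminal vesicle markers (Svs genes) were under 1 TPM in every sample, and the ventral prostate secretory genes Sbp, Sbpl and Spink1 held 40.4% to 45.8% of all TPM in WT samples and 32.1% to 34.3% in hSKP2-KI samples. Because TPM has a fixed total, a smaller share for these genes leaves a larger share for the others, and the median log2 fold change over all tested genes was 0.23. Fold changes are therefore also given after median-ratio scaling, which sets the typical gene to about no change (median -0.01).

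Binding protein transcripts were higher in hSKP2-KI ventral prostates, led by Igfbp2, Igfbp6, Igfbp7, Igfbp5 and Igfbp4, at 1.94 to 2.62 times the WT mean. Igf1 and Igfbp3 were also called higher, at 1.71 and 1.69 times the WT mean, although their groups overlapped. Igf2 (1.56 times) and Igf1r (1.15 times) did not pass the test. In a limma fit across all genes on log2(TPM + 1), 7 of the 9 genes passed an adjusted p of 0.05 and all 7 were higher. Of all tested genes 32.7% were called higher in the same fit. In 5 of the 9 the lowest hSKP2-KI value exceeded the highest WT value, a pattern that 34.0% of tested genes showed. After median-ratio scaling 4 of the 9 were called (Igfbp4, Igfbp5, Igfbp6 and Igfbp7), against 6.92% of tested genes, and 3 did not overlap (Igfbp4, Igfbp6 and Igfbp7), against 10.3%. The median log2 fold change of the 9 genes was 0.94 on the TPM scale and 0.67 after scaling. All 8 libraries are labelled as biological replicates. The limma p-values set the genotype difference against the variation between mice, which limma moderates across genes.

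**Figure D1:**
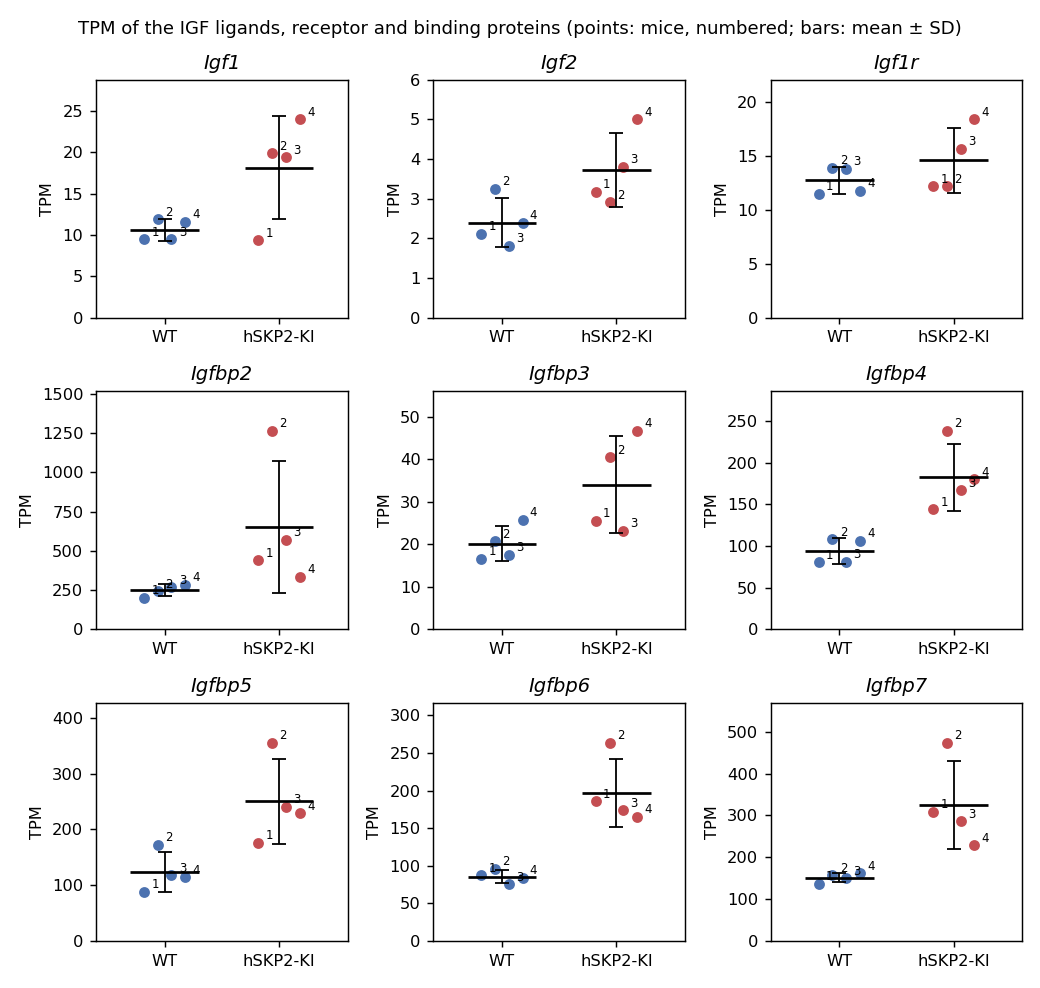
Each panel plots 1 gene, with TPM on the y axis (from 0), a numbered point for each mouse, and bars for the mean ± SD of 4 mice. The hSKP2-KI points of Igfbp2, Igfbp4, Igfbp5, Igfbp6 and Igfbp7 all lie above the WT points, while Igf1, Igf2, Igf1r and Igfbp3 overlap.

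**Figure D2:**
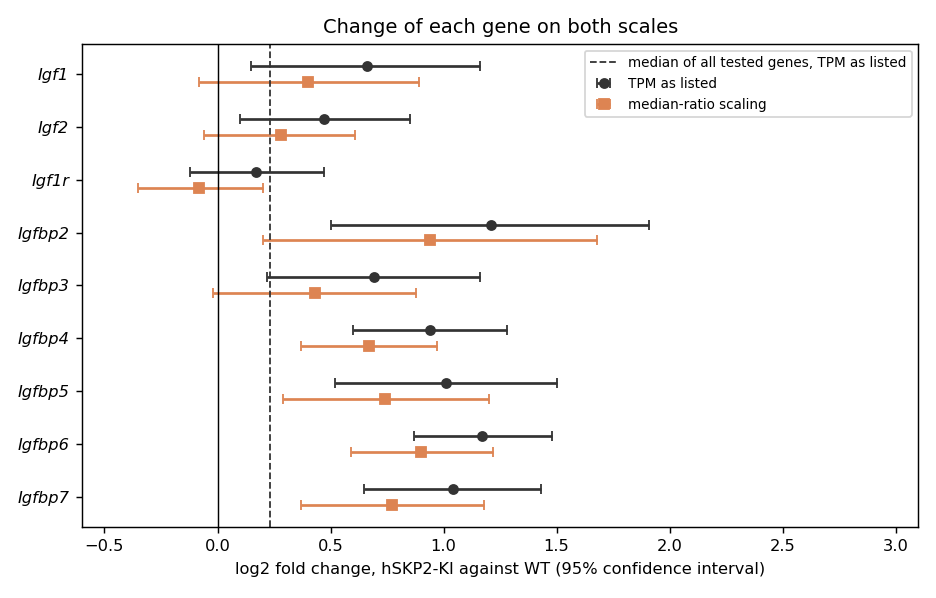
The x axis is the log2 fold change of hSKP2-KI against WT from limma, with 95% confidence intervals, for TPM as listed (circles) and after median-ratio scaling (squares). The dashed line at 0.23 is the median of all tested genes on the TPM scale, and the Igf1r estimate changes from 0.17 to -0.08 between the scales.

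Promoters of 3 of the genes are shown because Igfbp6 and Igfbp7 separated without overlap on both scales while Igf1r did not pass the test. These windows also lie just outside the annotated gene. Igfbp4 separated on both scales too, but its window lies within its annotated gene and is not shown. Each window shown is the 250 bases before the gene start, written 5′ to 3′ on the strand of the gene. The source was the RefSeq promoter table (GRCm38.p6), in which all 9 genes had an entry. Capitals mark matches on either strand to the TATA box (TATAAA), to the GC box of Sp1-type factors (GGGCGG) and to the core of the CCAAT box (CCAAT), so reverse complements also appear. The Igfbp6 window is chr15:102143936-102144185 (plus strand), the Igfbp7 window chr5:77408046-77408295 (minus strand) and the Igf1r window chr7:67952007-67952256 (plus strand).
Igfbp6: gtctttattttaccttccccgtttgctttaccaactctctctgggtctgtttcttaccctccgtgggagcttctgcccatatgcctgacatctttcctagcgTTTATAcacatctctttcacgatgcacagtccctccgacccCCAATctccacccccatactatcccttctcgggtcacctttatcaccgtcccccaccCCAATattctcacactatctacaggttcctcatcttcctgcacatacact
Igfbp7: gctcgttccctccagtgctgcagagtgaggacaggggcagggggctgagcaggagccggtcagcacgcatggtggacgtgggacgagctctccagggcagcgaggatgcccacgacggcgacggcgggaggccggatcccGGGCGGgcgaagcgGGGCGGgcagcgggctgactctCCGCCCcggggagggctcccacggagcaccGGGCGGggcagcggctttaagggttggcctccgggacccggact
Igf1r: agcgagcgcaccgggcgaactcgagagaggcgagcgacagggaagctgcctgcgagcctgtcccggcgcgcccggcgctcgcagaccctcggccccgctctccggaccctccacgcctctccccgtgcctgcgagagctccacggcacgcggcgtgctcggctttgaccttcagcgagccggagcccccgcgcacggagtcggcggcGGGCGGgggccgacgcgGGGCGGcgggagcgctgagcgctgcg

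The Igfbp6 window held 1 TATAAA, 148 bases before the start, and 2 CCAAT, and 49.6% of its bases were G or C. The Igfbp7 window held 4 GGGCGG and was 74.0% G or C, and the Igf1r window held 2 GGGCGG and was 77.6% G or C. Over all 32851 promoters of the table, windows of the same length held TATAAA in 12.4%, GGGCGG in 32.7% and CCAAT in 33.8%, and the median share of G or C was 52.4%. The windows of Igfbp6 and Igfbp7 thus shared none of these motifs. The Igfbp4 window, which is not shown, held 1 TATAAA, 28 bases before its start, and no GGGCGG or CCAAT. A match here is a description of the letters only.

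Igf1 encodes the main postnatal IGF ligand and lies on chromosome 10 (chr10:87858265-87937047, GRCm38, plus strand). Its level was 9.48, 11.9, 9.51 and 11.6 TPM in WT replicates 1 to 4 and 9.35, 19.9, 19.4 and 24.0 TPM in hSKP2-KI replicates 1 to 4. Replicates 2, 3 and 4 of hSKP2-KI were above all WT mice, and replicate 1 was the lowest of all 8. The mean was 18.2 ± 6.21 TPM (SD, n = 4) in hSKP2-KI against 10.6 ± 1.3 TPM (SD, n = 4) in WT, a log2 fold change of 0.66 (SE 0.23, limma adjusted p = 0.0466). After median-ratio scaling the log2 fold change was 0.40 (adjusted p = 0.26, 95% interval -0.08 to 0.89). Without hSKP2-KI replicate 1 the TPM-scale change was 0.93 (limma adjusted p = 0.00197). Leaving out any other single mouse ended the call, with changes of 0.50 to 0.71 and limma adjusted p of 0.0547 to 0.117. The increase in Igf1 thus rested on 3 of the 4 knock-in mice.

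Igf2 encodes the second ligand, an imprinted fetal growth factor, and lies on the minus strand of chromosome 7 (chr7:142650768-142666816). It was the lowest of the 9 genes in both genotypes. WT mice had 2.12, 3.25, 1.81 and 2.40 TPM, and hSKP2-KI mice had 3.18, 2.91, 3.81 and 5.0 TPM. The highest WT value lay above 2 of the hSKP2-KI values, so the groups overlapped. The log2 fold change was 0.47 (SE 0.17), with a limma adjusted p of 0.0504, just outside the threshold. The 95% interval was 0.10 to 0.85 on the TPM scale and -0.06 to 0.61 after scaling (adjusted p = 0.27). The annotated gene Gm49394 covers Igf2 on the same strand and has no row of its own in the table, so its reads cannot be told apart from those of Igf2. The antisense genes Igf1os and Igf2os were at most at 0.281 and 0.186 TPM.

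Igf1r encodes the receptor and spans 281412 bases on chromosome 7 (chr7:67952257-68233668, plus strand). WT mice had 11.5, 13.9, 13.8 and 11.8 TPM, and hSKP2-KI mice had 12.2, 12.2, 15.7 and 18.4 TPM. Replicates 1 and 2 of hSKP2-KI were inside the WT range and replicates 3 and 4 were above it. The log2 fold change was 0.17 (SE 0.13, limma adjusted p = 0.31), with a 95% interval of -0.12 to 0.47. After median-ratio scaling it was -0.08 (adjusted p = 0.729, 95% interval -0.35 to 0.20), so the sign depended on the scaling.

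The ligand was also set against its receptor within each sample, a ratio that sample scaling leaves nearly unchanged. The log2 ratio of Igf1 to Igf1r was -0.26, -0.21, -0.49 and -0.02 in WT mice and -0.35, 0.66, 0.29 and 0.36 in hSKP2-KI mice. Its mean was 0.24 ± 0.43 (SD, n = 4) in hSKP2-KI and -0.24 ± 0.19 (SD, n = 4) in WT, and the difference of 0.48 did not pass a two-sided exact permutation test (p = 0.114, smallest possible 0.0286). The log2 ratio of Igf1 to Igf2 differed by 0.18 (exact permutation p = 0.486). Adjusted over the 2 ratios by the Benjamini-Hochberg method, the exact p-values were 0.229 and 0.486. Without hSKP2-KI replicate 1 the differences were 0.68 and 0.40, each with an exact p of 0.0286, the smallest that 3 against 4 mice allow with this statistic. Only these 2 ratios were tested, and neither passed in all 8 mice.

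Igfbp2 encodes a binding protein that prefers IGF2, and it was the most abundant of the 9 transcripts in both genotypes (chr1:72824480-72852474, plus strand). WT mice had 201, 242, 269 and 285 TPM. The hSKP2-KI mice had 440, 1264, 570 and 336 TPM, all above WT, with replicate 2 far above the other three. The mean was 653 ± 418 TPM (SD, n = 4) against 249 ± 36.6 TPM (SD, n = 4), a log2 fold change of 1.21 (SE 0.32, limma adjusted p = 0.0178). Without hSKP2-KI replicate 2 the change was 0.83 (adjusted p = 0.0107). After median-ratio scaling it was 0.94 with overlapping groups and was not called (adjusted p = 0.0968). Leaving out WT replicate 1 also ended the call (adjusted p = 0.0551 in limma). Igfbp2 had the largest SE of the 9 genes. Its fold change was the largest in the 8 mice, but without hSKP2-KI replicate 2 it was below those of Igfbp6 (1.02) and Igfbp7 (0.84).

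Igfbp5 encodes a binding protein that associates with extracellular matrix, and it lies beside Igfbp2 on chromosome 1 (chr1:72858065-72874865, minus strand). The pair of genes points toward each other across a gap of 5590 bases. Igfbp5 was at 87.7, 173, 118 and 114 TPM in WT mice and at 176, 356, 241 and 229 TPM in hSKP2-KI mice. The lowest hSKP2-KI mouse was only just above the highest WT mouse. The log2 fold change was 1.01 (SE 0.22, limma adjusted p = 0.00832), and 0.74 (adjusted p = 0.0435) with overlap after scaling.

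Igfbp6 encodes a binding protein with a strong preference for IGF2 and lies on chromosome 15 (chr15:102144186-102149512, plus strand). WT mice had 87.4, 95.8, 75.1 and 84.3 TPM and hSKP2-KI mice had 186, 264, 174 and 165 TPM. The groups were widely separated, with the lowest knock-in value far above the highest WT value. The mean was 197 ± 45.4 TPM (SD, n = 4) against 85.7 ± 8.54 TPM (SD, n = 4), a log2 fold change of 1.17 (SE 0.14, limma adjusted p = 0.000641). After scaling it was 0.90 (adjusted p = 0.00609), still without overlap. This was the smallest adjusted p of the 9 genes on both scales.

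Igfbp7 encodes a more distant relative that binds IGFs weakly and is abundant in vessel walls and stroma (chr5:77349240-77408045, minus strand). WT mice had 137, 157, 150 and 162 TPM and hSKP2-KI mice had 308, 474, 286 and 228 TPM, with no overlap. The log2 fold change was 1.04 (SE 0.18, limma adjusted p = 0.00317), and 0.77 (adjusted p = 0.0259) after scaling. The Igfbp7 gene overlaps 85 bases of Polr2b on the opposite strand. The strand setting of the counting is not given in the sources used here, so reads in that overlap cannot be told apart. Polr2b itself was at 22.1 to 31.8 TPM, well below Igfbp7.

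Igfbp4 encodes a binding protein known as an inhibitor of IGF action that PAPPA cleaves (chr11:99040005-99052655, plus strand). WT mice had 80.4, 108, 81.0 and 106 TPM and hSKP2-KI mice had 144, 238, 167 and 180 TPM. No knock-in mouse fell in the WT range. The log2 fold change was 0.94 (SE 0.15, limma adjusted p = 0.0026), and 0.67 (adjusted p = 0.0151) after scaling, again with no overlap.

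Igfbp3 encodes the main carrier of IGFs in serum and lies on chromosome 11 (chr11:7206086-7215498, minus strand), 3539 bases from Igfbp1, which was listed at 0 in all 8 samples. WT mice had 16.6, 20.7, 17.6 and 25.8 TPM and hSKP2-KI mice had 25.6, 40.5, 23.2 and 46.7 TPM. Replicates 2 and 4 of hSKP2-KI were above all WT mice, and replicates 1 and 3 were not. The log2 fold change was 0.69 (SE 0.21, limma adjusted p = 0.0319), and 0.43 (adjusted p = 0.20) after scaling. Leaving out WT replicate 1, WT replicate 3, hSKP2-KI replicate 2 or hSKP2-KI replicate 4 ended the call, with adjusted p between 0.077 and 0.0877 in limma.

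The 6 binding protein transcripts summed to 610, 797, 711 and 777 TPM in WT mice and to 1280, 2635, 1461 and 1185 TPM in hSKP2-KI mice, with no overlap. Without Igfbp2 the sums were 409 to 555 TPM in WT and 840 to 1372 TPM in hSKP2-KI, again with no overlap. Igfbp4, Igfbp5, Igfbp6 and Igfbp7 each separated on the TPM scale, so these sums add no support of their own. The share of each gene in the sum overlapped between genotypes. Igfbp2 made up 34.5% ± 3.42 (SD, n = 4) in WT and 37.4% ± 8.25 (SD, n = 4) in hSKP2-KI, from 28.4% in replicate 4 to 47.9% in replicate 2. Igfbp7 made up 21.0% and 20.2%, Igfbp5 16.9% and 15.8%, and Igfbp3 2.78% and 2.27% in WT and hSKP2-KI. The summed ligand transcripts (Igf1 and Igf2) were 11.3 to 15.1 TPM in WT and 12.5 to 29.0 TPM in hSKP2-KI. Binding protein TPM per ligand TPM was 52.6, 52.7, 62.8 and 55.4 in WT mice and 102, 116, 62.9 and 40.9 in hSKP2-KI mice. The hSKP2-KI mice thus spanned values above and below all WT mice, with replicate 4, the mouse with the most Igf1 and Igf2, the lowest of all 8. That mouse and WT replicate 2 had the most Myh4 and Tnnt3, which are skeletal muscle transcripts. WT replicate 2 also had the most Igf1, Igf2 and Igf1r of the WT mice. For Igf1 (11.9 against 11.6 TPM in WT replicate 4) and Igf1r (13.9 against 13.8 TPM in WT replicate 3) this was a near tie. Myh4 was at 12.3 TPM in hSKP2-KI replicate 4 and 12.6 TPM in WT replicate 2, and at most at 0.307 TPM in the other mice. Tnnt3 was at 26.5 and 12.0 TPM in these 2 mice, against at most 0.935 TPM in the others. Acta1, another skeletal muscle marker, was at 151 to 370 TPM in all 8 mice and was highest in hSKP2-KI replicate 1. Summed adipocyte and endothelial marker genes were also highest in hSKP2-KI replicate 4 (210 and 92.4 TPM). Among WT mice the endothelial sum was highest in replicate 2 (52.1 TPM) and the adipocyte sum in replicate 4 (169 TPM). The part of muscle, fat or vessel tissue in the ligand values was not tested.

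**Figure D3:**
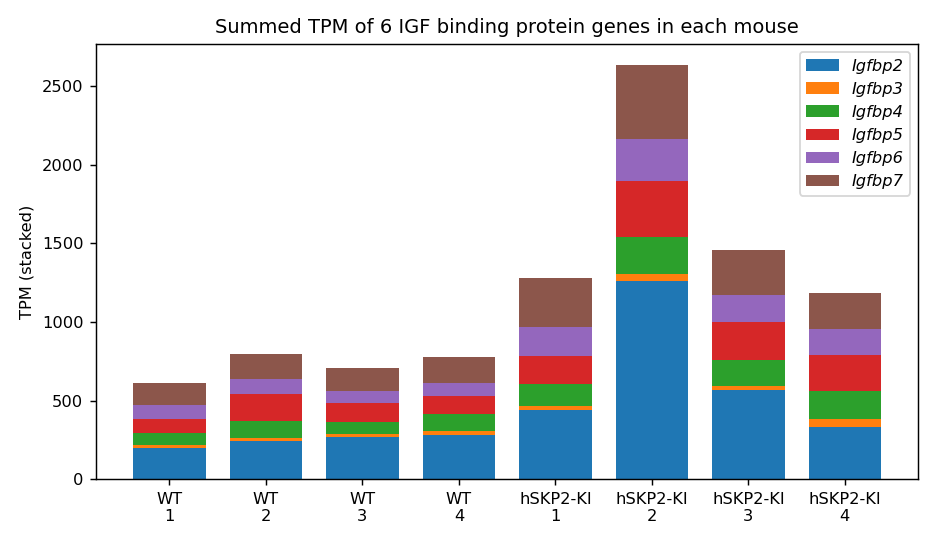
Each bar is 1 mouse, and its colored segments are the TPM of Igfbp2 to Igfbp7, stacked from 0. WT bars reach 610 to 797 TPM and hSKP2-KI bars reach 1185 to 2635 TPM, with hSKP2-KI replicate 2 the tallest.

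TPM is divided by transcript length, so levels of different genes can be set side by side. The length used for each gene is not given, and close ranks, such as those of Igf1r and Igf1, may depend on it. In WT the order by mean TPM was Igfbp2, Igfbp7, Igfbp5, Igfbp4, Igfbp6, Igfbp3, Igf1r, Igf1 and Igf2. The ranges of neighbours did not overlap between Igfbp2 and Igfbp7, between Igfbp6 and Igfbp3, between Igfbp3 and Igf1r, and between Igf1 and Igf2. Igfbp7, Igfbp5, Igfbp4 and Igfbp6 were not separated from their neighbours within that run. In hSKP2-KI Igfbp6 stood above Igfbp4 and Igf1 above Igf1r, and only Igfbp4 from Igfbp3 and Igf1r from Igf2 were separated. Igf1r was above Igf1 in 4 of 4 WT mice and below it in 3 of 4 hSKP2-KI mice.

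Many stromal markers were also higher in hSKP2-KI on the TPM scale. All 10 fibroblast markers (among them Col1a1, Dcn, Lum and Pdgfra) were called higher in hSKP2-KI on the TPM scale, where 32.7% of tested genes were called higher, and their summed level was 911 to 1613 TPM against 487 to 696 TPM in WT. After median-ratio scaling, where 6.92% of tested genes were called higher, 5 of the 10 were called (Dcn, Lum, Mfap5, Dpt and Pi16), and Col1a1 and Pdgfra were not. All 8 smooth muscle markers were called higher (4 of 8 after scaling), with sums of 3089 to 4722 TPM against 2083 to 2626 TPM. For endothelial markers 6 of 8 were called higher (2 of 8 after scaling), with sums of 58.5 to 92.4 TPM against 36.5 to 52.1 TPM. Of 8 macrophage markers 7 were tested and 6 were called higher (0 of 7 after scaling, lowest limma adjusted p = 0.0596), with sums of 213 to 435 TPM against 93.8 to 194 TPM. For epithelial markers 3 of 7 were called higher (0 of 7 after scaling), with a difference in mean log2(TPM + 1) of 0.25 (-0.02 after scaling), against 1.06 for fibroblasts (0.80 after scaling). The mouse with the highest Igfbp2, hSKP2-KI replicate 2, also had the highest fibroblast, macrophage, smooth muscle and basal epithelial sums. The epithelial sum was highest in hSKP2-KI replicate 1 (3048 TPM). The endothelial sum was highest in hSKP2-KI replicate 4 (92.4 TPM), the knock-in mouse with the least Igfbp2 (336 TPM). In bulk tissue, more cells of a type and more RNA per cell cannot be told apart, and the part of stromal content in these results was not tested.

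Each gene was therefore also described relative to the mean log2(TPM + 1) of the 10 fibroblast markers in the same mouse. On this measure the hSKP2-KI and WT ranges overlapped for all 6 binding proteins. The differences were 0.15 for Igfbp2, 0.12 for Igfbp6, -0.01 for Igfbp7, -0.04 for Igfbp5, -0.12 for Igfbp4 and -0.37 for Igfbp3. Igf1 and Igf2 differed by -0.40 and -0.58 with overlap. Igf1r was lower without overlap (-0.88), as were 75.5% of tested genes, whose median was -0.82. The differences of Igfbp2, Igfbp4, Igfbp5, Igfbp6 and Igfbp7 were thus between -0.12 and 0.15, and no test was run on them.

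Relative to the 8 smooth muscle markers all 9 genes overlapped, whereas 51.0% of tested genes were lower without overlap. Differences there were 0.47 for Igfbp2, 0.44 for Igfbp6, 0.31 for Igfbp7, 0.28 for Igfbp5 and 0.20 for Igfbp4, and -0.05 for Igfbp3, -0.08 for Igf1, -0.26 for Igf2 and -0.56 for Igf1r. Relative to the 8 endothelial markers, Igf1r was lower without overlap (-0.44), as were 30.0% of tested genes, and the other genes overlapped. Relative to the 7 epithelial markers, Igfbp2 (0.96), Igfbp6 (0.92), Igfbp7 (0.79) and Igfbp4 (0.69) were higher without overlap, as were 6.15% of tested genes. None of these measures was given a test.

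**Figure D4:**
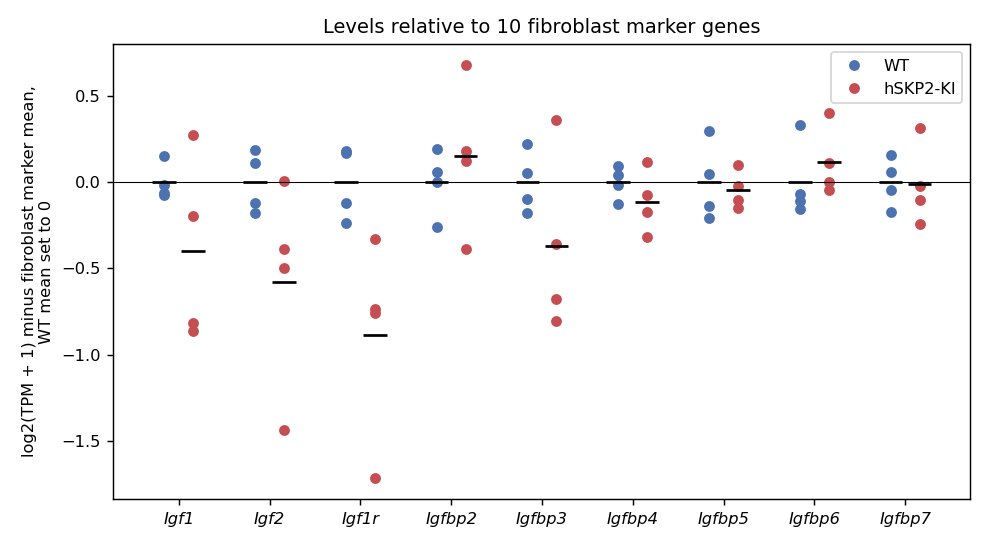
The y axis is log2(TPM + 1) minus the mean of 10 fibroblast markers in the same mouse, with the WT mean of each gene set to 0. Points are mice and lines are means, and only Igf1r has all hSKP2-KI points below the WT points.

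Variation between mice of the same genotype was described by Pearson's r over the 8 samples after the genotype mean was subtracted. Such r values share libraries and scaling, rest on few mice and carry no p. Among the 9 genes the closest pairs were Igfbp2 with Igfbp7 (r = 0.95), Igfbp6 with Igfbp7 (r = 0.869) and Igfbp4 with Igfbp5 (r = 0.853), and the lowest was Igf1r with Igfbp7 (r = -0.681). Across all tested genes, each of the 9 had 3 others with r of at least 0.974, so such a value did not set a pair apart. For Igfbp2 the highest were Smoc2, Tmem100 and Marcks (r = 0.994, 0.984 and 0.98). Smoc2 encodes a secreted calcium-binding matrix protein and was itself higher in hSKP2-KI, with a mean of 139 TPM against 49.3 TPM (log2 fold change 1.43, limma adjusted p = 0.000608). For Igfbp3 the closest were Il15ra, the endothelial cadherin gene Cdh5 and Mfng (r = 0.995, 0.986 and 0.977). For Igfbp4 they were Inf2, Angptl2 and Homer3, for Igfbp5 Camkk2, the laminin gene Lama2 and Mcm4, for Igfbp6 Rgs4, Txnl4b and Msto1, and for Igfbp7 Mmp17, Fbxw8 and Itgb5, all with r of 0.974 to 0.993. For Igf1 they were Helb, Adh7 and Cdk5rap2, for Igf2 Osbpl6, C330007P06Rik and Ubxn8, and for Igf1r Rnmtl1 and Zfp553.

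Other genes of the axis were read from a list of 15, of which 7 passed the filter. Stc1 and Igf2bp2 were called higher and none was called lower on the TPM scale and after median-ratio scaling. That is 28.6% of the 7 on both scales, against 32.7% of all tested genes on the TPM scale and 6.92% after scaling. The list median was 0.17 against 0.23 for all genes on the TPM scale. Stc1 encodes stanniocalcin 1, an inhibitor of the PAPPA protease that releases IGF from IGFBP4, and it was at 6.29, 9.28, 10.4 and 8.87 TPM in WT and 19, 21.1, 15.9 and 16.9 TPM in hSKP2-KI. Its log2 fold change was 1.00 (SE 0.14, limma adjusted p = 0.0015), and 0.75 (adjusted p = 0.00804) after scaling, without overlap on either scale. Igf2bp2, which encodes an RNA-binding protein, was low in both groups, at 0.373 to 0.926 TPM in WT and 1.23 to 2.34 TPM in hSKP2-KI (log2 fold change 0.87, limma adjusted p = 0.0048, and 0.73, adjusted p = 0.0226, after scaling). Igf2r, the clearance receptor for IGF2, was at 47.9 to 63.5 TPM in WT and 43.6 to 61.5 TPM in hSKP2-KI (log2 fold change -0.08, limma adjusted p = 0.622). After scaling its change was -0.34 (adjusted p = 0.0718, 95% interval -0.58 to -0.10). The insulin receptor gene Insr (0.17), the growth hormone receptor gene Ghr (0.31), Stc2 (0.16) and the protease gene Pappa2 (-0.63) did not pass on the TPM scale, nor after median-ratio scaling (-0.09, 0.05, -0.10 and -0.84). Pappa2 was called lower after quantile normalization (-0.94, limma adjusted p = 0.0439). Insrr, Igfals, Pappa, Igf2bp1, Igf2bp3 and H19 were below the filter, and Igfbp1 and Igfbpl1 were listed at 0.

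Downstream of the receptor, 27 of 28 listed signalling genes were tested and 10 were called higher, which is 37.0% of them against 32.7% of all tested genes, with a median of 0.24 against 0.23. After median-ratio scaling 2 were called (7.41% against 6.92%), the adaptor genes Grb14 and Grb10, whose products bind insulin and IGF receptors and dampen their signals. Grb14 was at 5.87 to 7.18 TPM in WT and 10.6 to 12.9 TPM in hSKP2-KI (log2 fold change 0.77, limma adjusted p = 0.0011, and 0.53, adjusted p = 0.0066, after scaling). Grb10 was at 2.35 to 3.35 TPM and 3.76 to 5.92 TPM (0.64, limma adjusted p = 0.00828, and 0.43, adjusted p = 0.0452). Pik3r1, a regulatory subunit of PI3K, and the transcription factor gene Foxo1 had changes of 0.49 and 0.45 on the TPM scale, and of 0.23 and 0.20 after scaling, where they were not called (limma adjusted p = 0.0927 and 0.189). The receptor substrates Irs1 and Irs2 (0.05 and 0.14), Akt1 (0.16) and Mtor (0.04) did not pass on the TPM scale, nor after scaling (-0.20, -0.08, -0.10 and -0.21).

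Of 12 other secreted or membrane proteins that carry an IGFBP-type domain, 8 were tested and 5 were called higher, with a median of 0.60 (0.34 after scaling). That is 62.5% of the 8 against 32.7% of all tested genes, and after scaling 12.5% (1 gene) against 6.92%. Htra3, which encodes a secreted serine protease, was at 6.9 to 13.6 TPM in WT and 18.3 to 36.5 TPM in hSKP2-KI, and its log2 fold change was 1.18 (limma adjusted p = 0.00456), or 0.93 after scaling (adjusted p = 0.0264). It was the gene of this list called after scaling. Ccn5, a matricellular protein gene listed as Wisp2, had a change of 0.97 (limma adjusted p = 0.0272), with 7.49, 21.4, 10.8 and 5.95 TPM in hSKP2-KI mice against 4.4 to 5.21 TPM in WT, and of 0.74 after scaling (adjusted p = 0.14). Htra1, Ccn3 (listed as Nov) and Crim1 had changes of 0.57, 0.41 and 0.36 and were called on the TPM scale, but not after scaling (0.31, 0.19 and 0.11).

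**Figure D5:**
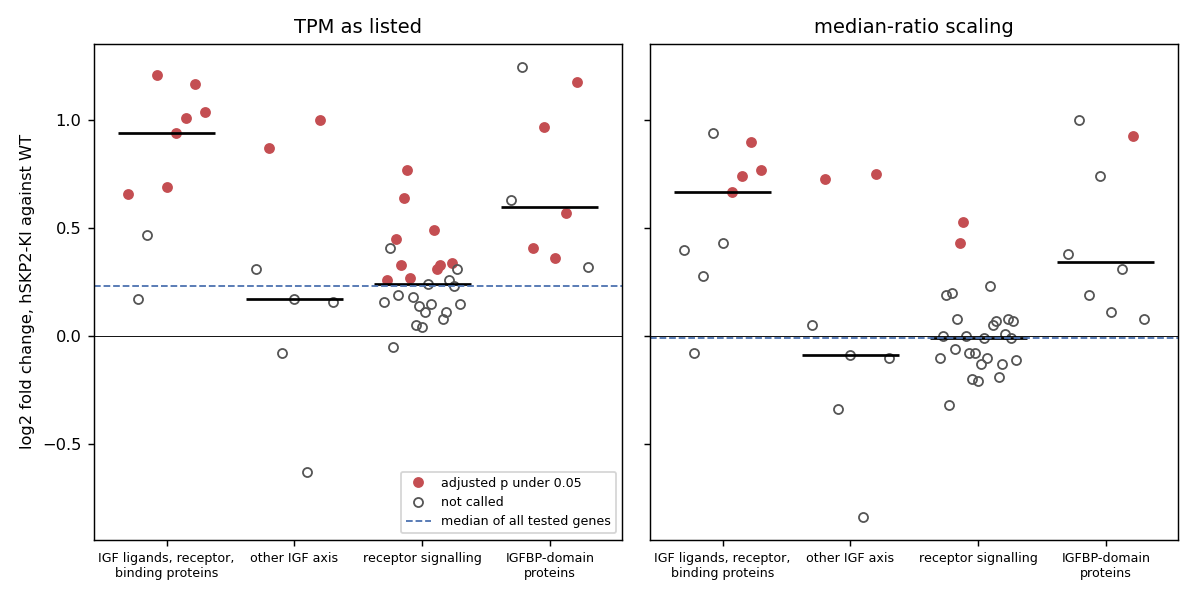
Each point is a tested gene, with its log2 fold change on the y axis for TPM as listed (left) and after median-ratio scaling (right). Filled points passed an adjusted p of 0.05, lines are list medians, and the dashed line is the median of all tested genes. The median of the ligands, receptor and binding proteins is 0.94 and 0.67 on the 2 scales, and that of the signalling genes is 0.24 and -0.01.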

How the data were processed

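RNA from the ventral prostate of 8 mice (4 per genotype) was sequenced as separate libraries. Trimming, mapping and counting were done in CLC software, and the submitters' processing notes name mm10 and GRCm38. The software version, annotation and counting options are not given in the sources used here. The authors deposited 1 table of TPM (reads per gene divided by transcript length and scaled to a fixed total), with 0 columns of other samples. TPM keeps no counts, so no depth, counting interval or count model could be used.

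Samples were grouped by the genotype in their labels. The 13080 genes with TPM no lower than 1 in 4 or more samples were fitted as log2(TPM + 1) with limma 3.58.1 (R 4.3.3), using its trend option. Benjamini-Hochberg adjustment ran over all of these genes, and calls had an adjusted p under 0.05. Fold changes are on the log2(TPM + 1) scale, which understates changes of low genes. For ratios within a sample, a two-sided exact test enumerated the 70 assignments of genotype. The procedure was tested on simulated data.

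The genes named were the 9 genes, the other axis genes, up to 4 called genes without overlap in each further list with the largest changes, the 3 genes closest in pattern to each of the 9, Skp2, Pbsn and marker genes. Some genes within the rule are left out of the text. Polr2b, Gm49394, Igf1os and Igf2os, and Crim1, Irs1, Irs2, Akt1, Mtor and Eif4ebp1, were named outside this rule, after their values were seen. The members and lists were chosen with earlier results of these data known. The binding protein sums and shares, the levels relative to markers and the promoter windows were chosen after values were seen. Further marker lists were basal epithelial (2 of 4 called higher), adipocyte (0 of 5), Schwann cell (0 of 3) and skeletal muscle (1 of 3 tested). These counts are on the TPM scale, where 32.7% of tested genes were called higher. After median-ratio scaling 0 genes of each of these lists were called higher. Gene positions, overlaps and promoters were from GRCm38.p6 annotation. Plots were made in Python 3.11.15 using matplotlib 3.10.9.

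The alternatives tried were 3 other scalings (median-ratio, quantile, and TPM recomputed after the 20 most abundant genes were removed), 2 other filters (none, or a mean of 5 TPM), and a pseudocount of 0.1. Sample weights, limma's robust option, the replicate number as a block and the omission of single mice were also tried.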

Additional observations from a re-analysis of the deposited data

How the results depend on the processing

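Igfbp4, Igfbp6 and Igfbp7 were called higher under all 17 alternatives, with limma adjusted p of at most 0.0169, 0.00609 and 0.0259, and Igfbp5 under all but quantile normalization (adjusted p = 0.0621). Of the 9 genes, 4 were called with no filter, 4 after median-ratio scaling, 3 after quantile normalization and 4 without the 20 most abundant genes, and 4 to 7 when 1 mouse was left out, the lowest without WT replicate 1. Over all genes 4433 were called (4272 higher, 161 lower), 1461 after median-ratio scaling (905 higher, 556 lower), 1317 after quantile normalization (709 higher, 608 lower), 1330 without the 20 most abundant genes (892 higher, 438 lower) and 2993 to 4677 when 1 mouse was left out. The Igf1r change was 0.17 and became -0.08 after median-ratio scaling, -0.08 after quantile normalization and -0.06 without the 20 most abundant genes. The Igf2 call was gained with a limma adjusted p of 0.0377 with sample quality weights, 0.0477 with the robust step, 0.0251 without WT replicate 2 and 0.0455 without hSKP2-KI replicate 2, while the robust step ended the calls of Igf1 (adjusted p = 0.0652) and Igfbp2 (adjusted p = 0.055) and quality weights that of Igfbp3 (adjusted p = 0.0643). Igf2 fell below a mean TPM of 5, so it had no value there. Of the other axis genes 2 were called, 1 with a mean TPM of at least 5, and 2 to 3 when 1 mouse was left out. The count was 3, with 1 lower, after quantile normalization, with the block, with quality weights, without WT replicate 1 and without hSKP2-KI replicate 4. Of the signalling genes 10 were called, 6 with no filter, 2 after median-ratio scaling, 2 after quantile normalization and 2 without the 20 most abundant genes (in both of these Grb14 higher and Eif4ebp1 lower), and 4 to 11 when 1 mouse was left out. That count was 5 without WT replicate 1, 6 without WT replicate 3, 6 without hSKP2-KI replicate 1, 5 without hSKP2-KI replicate 2 and 4 without hSKP2-KI replicate 4. Of the genes with an IGFBP-type domain 5 were called, 3 with no filter, 1 after each of the 3 other scalings, and 3 to 7 when 1 mouse was left out (3 without WT replicate 1 and 3 without WT replicate 4). The log2 ratio of Igf1 to Igf1r differed by 0.34 to 0.68 and that of Igf1 to Igf2 by 0.03 to 0.40 when 1 mouse was left out, in each case highest without hSKP2-KI replicate 1. The causes of these shifts were not tested.

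The labels number the mice of both genotypes 1 to 4, but deviations of same-numbered mice did not correlate in every pair (0.221, -0.109, 0.167 and -0.0142), so the numbers were not taken as a pairing. With the replicate number as a block 7 of the 9 genes were again called, and the exact p-values of the ratios were 0.25 and 0.625, where 0.125 is the smallest possible. TPM carries no depth, so limits that counting sets on the low values of Igf2 and Igf2bp2 could not be given.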
